A study of Mus musculus with 18 samples.

Results

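Transcripts of 10 members of the BCL2 family, the proteins that set whether a cell enters mitochondrial apoptosis, were followed through mouse leukemia cells and normal blood progenitors given reprogramming factors or reprogramming compounds. The members were Bcl2, Bcl2l1, Mcl1, Bak1, Bid, Bcl2l11, Pmaip1, Bbc3, Bmf and Bik. They were chosen by name, and each was read by its probe set with the highest mean among those that map to that gene alone. All 10 had such a probe set, out of 22180 genes in all, and all 10 passed the filter on dim probe sets, which 16337 genes passed. The acute myeloid leukemia (AML) cells were GFP-positive, carried MLL-AF9, a fusion oncogene of myeloid leukemia, and were sorted from leukemic mice. The normal cells were the Lin-, Kit+ and Sca1+ (LSK) fraction of marrow, in which stem and early progenitor cells are enriched. Per the labels all cells came from 4F mice, whose transgenes for Oct4, Sox2, Klf4 and c-Myc are switched on by doxycycline (Dox), so the controls carry these transgenes too. Per the labels, the AML Dox and LSK Dox groups had Dox for 24 h to induce the factors. The AML Compound and LSK Compound groups had 24 h with VPA, which inhibits histone deacetylases, CHIR, which inhibits GSK3, 616452, which inhibits the TGF-beta receptor, and TCP, which inhibits LSD1. AML Control and LSK Control were cells of each kind with neither. Whether the controls were also cultured for 24 h or were taken before culture is unclear from the design text, so a treatment and the culture itself cannot be told apart in the differences below. The sources used here give neither the promoter of the transgenes nor the strain, the ages or the number of animals. Each group had 3 arrays that the labels call biological repeats, without saying whether these were different animals or cultures. The p-values therefore rest on the scatter of these samples, some of which may be technical.

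BCL2 proteins work as a balance. BCL2, BCL-XL (the product of Bcl2l1) and MCL1 guard the outer mitochondrial membrane. BAK (Bak1) and its partner BAX, once active, join into pores in that membrane and let cytochrome c out, which starts the caspases. The BH3-only proteins BID, BIM (Bcl2l11), NOXA (Pmaip1), PUMA (Bbc3), BMF and BIK sense stress and either bind the guardians or activate the pore formers directly. Blood stem cells are known for their need of MCL1, and myeloid leukemia cells for that of MCL1 and BCL2. BCL2 is the target of a drug class used against myeloid leukemia.

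The values are log2 expression after RMA, so 1 unit is a doubling, and they show differences between groups for a gene but not which gene is the more abundant. The arrays correlated at r of 0.979 to 0.989 within a group, over all probe sets, except LSK Compound replicate 1, which reached at most 0.672 with any other array and was left out, as the rule for these genes says. LSK Compound therefore has 2 arrays, and 17 arrays in all were fitted. On the array left out Bak1 read 4.13 against 6.27 to 7.79 on the others, and Mcl1 6.52 against 7.59 to 8.04. The count of changed members in each comparison is therefore also given with it, and so are most counts of the gene lists. Most but not all markers followed the labels. The summed linear level of 5 LSK markers measured out of 7 was 1480 to 1539 on the LSK Control arrays and 494 to 527 on the AML Control arrays, with each of the 5 lower in AML Control. Of 6 MLL-AF9 leukemia genes 5 lay above LSK Control on all AML Control arrays (Hoxa9 at 7.82 against 5.59), and Mef2c lay below (3.97 against 6.45). Sca1 (Ly6a) was not analysed here. LSK Compound replicates 2 and 3 also differed from the other LSK arrays in sex-linked transcripts, with Xist at 7.34 on average against 9.28 to 9.77, and Uty at 5.08 on average against at most 2.02, so the LSK Compound and LSK Control cells were not matched in these transcripts. The AML arrays read Xist at 2.34 to 3.01 and Uty at most 2.53, so the AML against LSK comparisons were not matched in Xist either. Among AML cells Eif2s3y, Kdm5d and Uty lay above all controls in AML Compound, and Uty did in AML Dox. These levels were low: the summed linear level of 4 sex-linked transcripts was 22.8 to 24.5 in AML Compound and 17.6 to 18.7 in AML Control. The part of this in the results was not tested. In sorted bulk cells, fewer cells of a type and less RNA per cell cannot be told apart.

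The sequences just before the start sites of Bak1 and Bcl2 are shown because these members responded to Dox in opposite directions in AML cells, and their responses differed between the cell types. Each line holds the 250 bases before the RefSeq start, 5′ to 3′ on the gene's strand, in build GRCm38.p6. Capitals mark the GC box GGGCGG, a motif of Sp and Klf proteins. It was searched on both strands, together with the CACCC box CACCC and the Myc E-box CACGTG.
Bak1, chr17:27028628-27028877, minus strand: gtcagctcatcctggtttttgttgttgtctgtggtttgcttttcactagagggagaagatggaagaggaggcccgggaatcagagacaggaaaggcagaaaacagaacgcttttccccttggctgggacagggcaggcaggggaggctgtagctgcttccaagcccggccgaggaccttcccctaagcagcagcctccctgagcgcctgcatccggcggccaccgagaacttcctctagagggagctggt
Bcl2, chr1:106714291-106714540, minus strand: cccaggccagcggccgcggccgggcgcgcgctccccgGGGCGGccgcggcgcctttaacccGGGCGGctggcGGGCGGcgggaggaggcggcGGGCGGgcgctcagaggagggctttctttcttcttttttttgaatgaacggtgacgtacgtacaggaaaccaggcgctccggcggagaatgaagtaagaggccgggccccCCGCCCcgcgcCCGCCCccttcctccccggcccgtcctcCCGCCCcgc
The Bcl2 window held 7 GC boxes and the Bak1 window 0, and neither held a CACCC box or an E-box. Their GC content was 74.8% and 58.4%. Of the other members, Bid had 3 GC boxes, Bcl2l11 3 and 2 in its windows, Bbc3 5, 1 and 7, and Mcl1 1. Every window of Bcl2l1 and Bmf had 0. A link between GC boxes and the responses was not tested. Among 32851 RefSeq windows of this length, 32.7% held a GC box, 52.0% a CACCC box and 6.02% the E-box. A match is a description, not a bound site. The table had a window for 8 of the 10 members. That of Bid is not shown, since 238 of its 250 bases lie inside the annotated span of the gene. Pmaip1 and Bik are named only.

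In AML cells under Dox the BH3-only genes Bid, Bcl2l11 and Pmaip1, the pore former Bak1 and the guardian Bcl2l1 fell, and the guardian Bcl2 rose. Of the 10 members 6 changed, 1 up and 5 down, where 48.6% of all genes tested changed, 23.0% up and 25.6% down. The share of members is close to this background. Arrays of the 2 groups did not overlap for 7 members, and for 55.7% of all genes. The median log2 difference of the members was -0.27 and that of all genes -0.01. In LSK cells under Dox 2 members changed: Bcl2 fell and Mcl1 rose, where 19.1% of all genes changed, 9.21% up and 9.93% down (member median -0.06, all genes -0.05). Groups did not overlap for 5 members and 36.1% of all genes. Under the compounds 4 members changed in AML cells, with Pmaip1 up and Bcl2l1, Bid and Bak1 down, where 32.0% of all genes changed, 12.8% up and 19.2% down (member median -0.07, all genes -0.03). Groups did not overlap for 5 members and 41.7% of all genes. Another 4 changes were called in LSK cells, with Pmaip1, Bcl2l11 and Bak1 up and Bcl2 down, where 34.2% of all genes changed, 14.2% up and 20.0% down (member median 0.15, all genes -0.05). Groups did not overlap for 7 members and 53.3% of all genes. With all 18 arrays the counts of changed members were 4, 1, 3 and 2 in the same order. Both treatments of a cell type are set against the same control arrays.

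**Figure D1:**
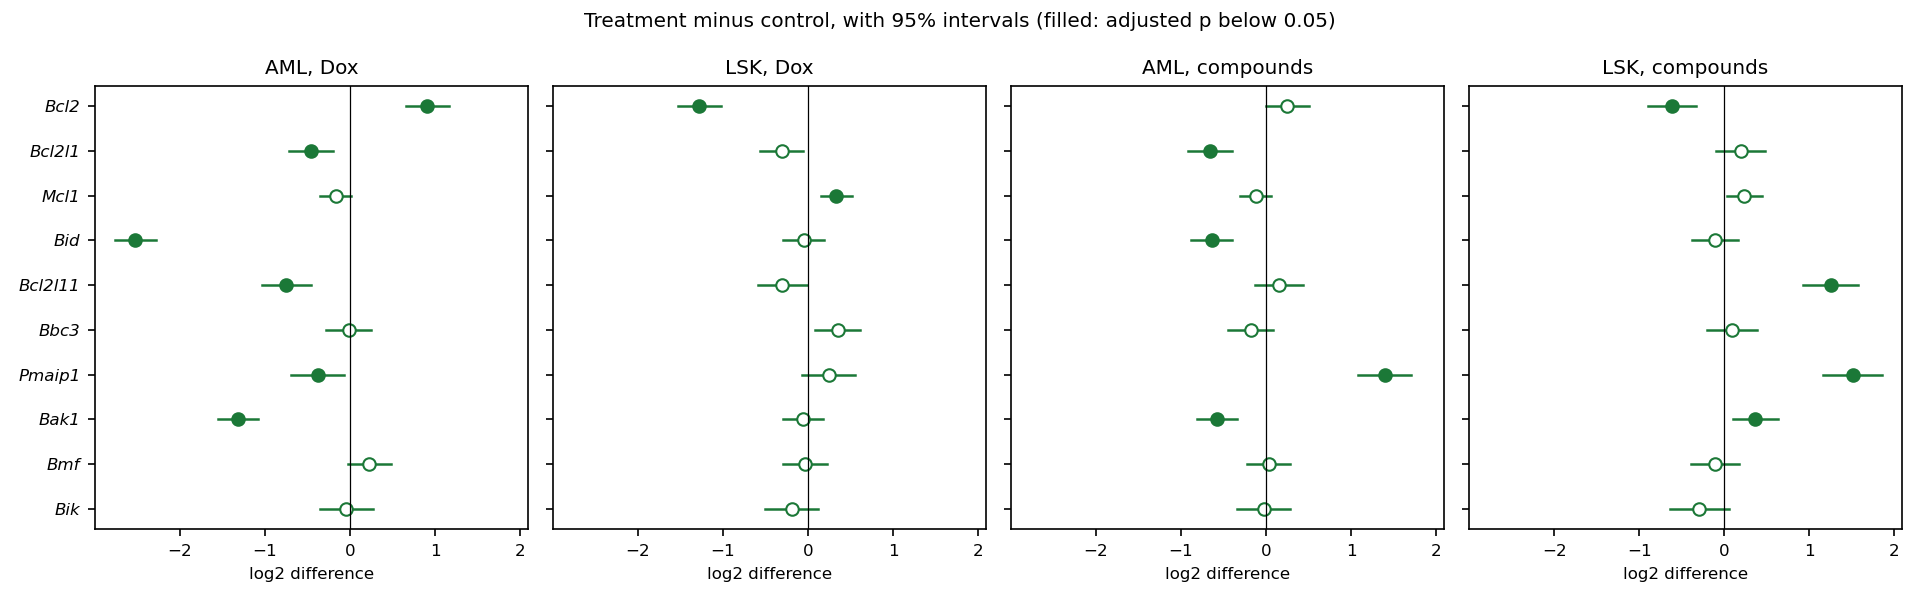
Log2 difference of each member between treatment and control, in AML and LSK cells under Dox or the compounds, on 17 arrays. Points are limma estimates, lines are 95% intervals, and filled points passed an adjusted p of 0.05. Bcl2 lies at 0.91 in AML cells and at -1.28 in LSK cells under Dox, and Pmaip1 lies at 1.40 and 1.51 under the compounds.

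Bcl2, the founding guardian, separated the cell types at rest and moved in opposite directions under Dox. It read 7.95, 8.12 and 8.12 on the LSK Control arrays and 5.30, 5.45 and 5.50 on the AML Control arrays. Every LSK Control array was thus above every AML Control array, a 6.27-fold difference (log2 -2.65 for AML minus LSK, SE 0.12, adjusted p = 2.14e-11). Only 0.832% of all genes tested differed by as much. Under Dox it read 6.36, 6.43 and 6.19 in AML cells, above all their controls, and rose by 0.91 (SE 0.12, adjusted p = 4.24e-06). In LSK cells under Dox it read 6.80, 6.71 and 6.84, below all their controls, and its log2 difference was -1.28 (SE 0.12, adjusted p = 5.62e-07). The gap between LSK and AML cells was 0.46 under Dox, and the 3 arrays of each still did not overlap. Under the compounds AML cells read 5.89, 5.69 and 5.42, which overlapped their controls (log2 difference 0.25, 95% interval -0.0036 to 0.50, adjusted p = 0.132). The difference passed without AML Compound replicate 3 (0.37, adjusted p = 0.0230), and with quantile normalization or array quality weights. LSK Compound replicates 2 and 3 read 7.30 and 7.60, below every LSK Control array, with a log2 difference of -0.61 (SE 0.13, adjusted p = 0.00148). The array left out moved it to -1.07 (adjusted p = 0.0154). The order of Bcl2 levels was LSK Control, LSK Compound, LSK Dox, AML Dox, AML Compound and AML Control. In that order no neighbours overlapped except AML Compound and AML Control. A second, dim Bcl2 probe set stayed between 1.91 and 2.46 on all 17 arrays, near the filter level of 2.32 to 2.41. With the mean of both probe sets the Bcl2 differences kept their direction and were smaller: 0.47 for AML Dox (adjusted p = 0.000124), -0.66 for LSK Dox (adjusted p = 2.02e-05), -0.31 for LSK Compound (adjusted p = 0.0141), -1.36 for the controls (adjusted p = 1.19e-09) and 1.13 for the difference in Dox response (adjusted p = 5.71e-07). For Dox against compounds it gave 0.44 in AML cells (adjusted p = 0.000267) and -0.34 in LSK cells (adjusted p = 0.00866). For AML Compound against AML Control it gave 0.03, which did not pass.

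Bcl2l1, which encodes the guardian BCL-XL, was lower in AML cells after both treatments. It read 4.28, 4.54 and 4.80 on the AML Control arrays, 4.16, 4.16 and 3.93 under Dox, and 3.96, 3.84 and 3.84 under the compounds. The 3 AML Control arrays differed among themselves, and all lay above all treated AML arrays. The log2 difference was -0.46 under Dox (SE 0.12, adjusted p = 0.00427) and -0.66 under the compounds (SE 0.12, adjusted p = 0.000412). In LSK cells it read 4.41, 4.22 and 4.41 in the controls, 4.15, 4.05 and 3.91 under Dox, and 4.43 and 4.65 under the compounds. LSK Dox lay below all controls but did not pass (-0.31, 95% interval -0.57 to -0.05, adjusted p = 0.0898), except after quantile normalization (-0.37, adjusted p = 0.0358). LSK Compound did not pass either (0.19, 95% interval -0.09 to 0.48, adjusted p = 0.321). The 6 group means of Bcl2l1 spanned 0.66, against 2.65 for Bcl2.

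Mcl1, the short-lived guardian on which blood stem cells depend, held the narrowest range among the guardians: 7.59 to 8.04 over the 17 arrays. LSK Control read 7.75, 7.59 and 7.69, and LSK Dox 8.01, 8.04 and 7.97, all above the controls. That rise of 0.33 (SE 0.09, adjusted p = 0.0108) was the only Mcl1 change against a control to pass. It did not pass without LSK Control replicate 2 (0.29, adjusted p = 0.0530) or with all 18 arrays, where Mcl1 on the added array is the value given above. AML Control read 7.86, 7.86 and 7.99, AML Dox 7.61, 7.80 and 7.80, and AML Compound 7.70, 7.80 and 7.86. Both treated AML groups lay below the controls by less than the test could call (-0.17, adjusted p = 0.121, and -0.12, adjusted p = 0.337). The first passed with each array centred on its median (-0.25, adjusted p = 0.0238) and with an intensity trend. LSK Compound read 7.84 and 7.99, above its controls (0.24, adjusted p = 0.0675). This rise passed with the mean of both Mcl1 probe sets (0.45, adjusted p = 0.00149), a stricter filter or an intensity trend. With all 18 arrays it turned to -0.23 and did not pass. The second probe set was dimmer, with group means of 3.62 in LSK Control, 4.28 in LSK Dox and 4.29 in LSK Compound.

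Bak1 encodes the pore former BAK, the only effector among the 10. It read 7.72, 7.67 and 7.72 on the AML Control arrays, 6.27, 6.58 and 6.32 under Dox, and 7.11, 7.37 and 6.90 under the compounds. No AML group overlapped another, with the controls highest and Dox lowest. The log2 difference was -1.31 under Dox, a 2.48-fold fall (SE 0.11, adjusted p = 1.92e-08), and -0.57 under the compounds (SE 0.11, adjusted p = 0.000698). LSK cells read 7.45, 7.33 and 7.40 in the controls and 7.21, 7.41 and 7.37 under Dox, which overlapped (-0.06, 95% interval -0.30 to 0.18, adjusted p = 0.782). LSK Compound replicates 2 and 3 read 7.79 and 7.73, above their controls (0.37, SE 0.13, adjusted p = 0.0312). That rise did not pass without LSK Control replicate 2 or 3 (adjusted p = 0.0854 and 0.0600), without LSK Compound replicate 2 or 3 (adjusted p = 0.144 and 0.0893), or with each array centred on its median (adjusted p = 0.0648). The array left out, at 4.13, turned it to -0.84 (adjusted p = 0.341) and widened the spread so that the AML changes were not called either (adjusted p = 0.176 and 0.902).

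**Figure D2:**
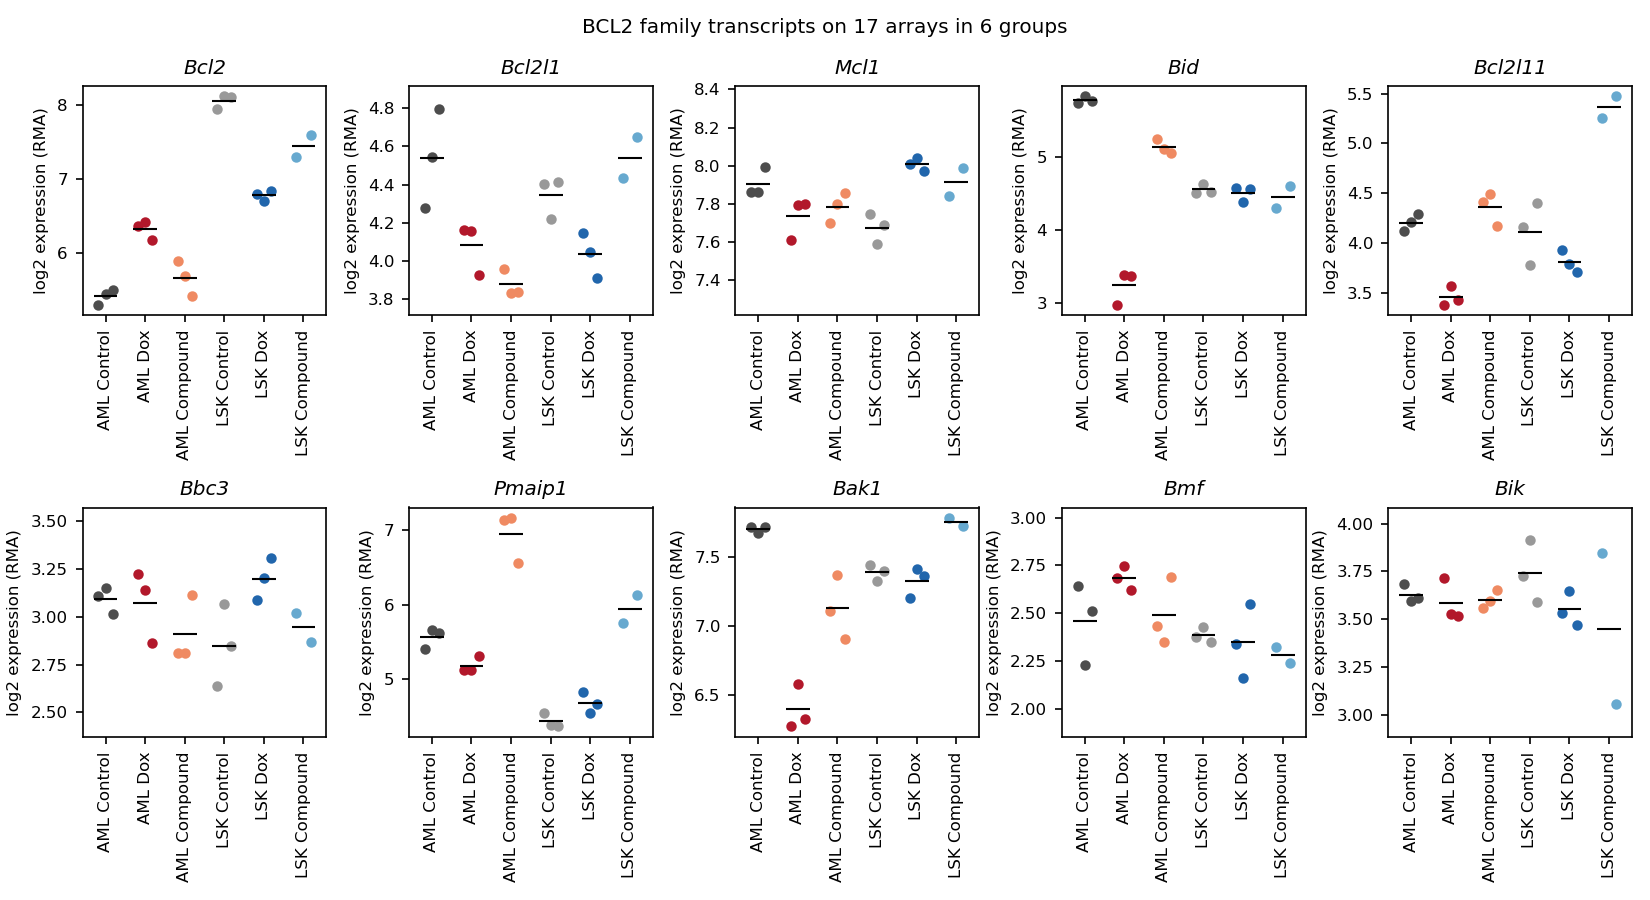
Log2 expression of each member on 17 arrays, by group, 1 point per array with the group mean as a bar. The vertical scales differ between genes. Bid sits at 2.98 to 3.39 in AML Dox and at 4.30 or above everywhere else, and Bcl2l11 is highest in LSK Compound, at 5.25 and 5.47.

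Bid had the largest change of the 10 members under Dox in AML cells. BID is cut by caspase 8 and carries the death receptor signal to mitochondria. It read 5.74, 5.82 and 5.76 on the AML Control arrays and 2.98, 3.39 and 3.38 under Dox, a 5.75-fold fall (log2 -2.52, SE 0.11, adjusted p = 4.94e-12). A change this large was seen in 2.69% of all genes tested. The compounds gave 5.24, 5.10 and 5.06 in AML cells, between the other groups, with a log2 difference of -0.64 (SE 0.11, adjusted p = 0.000315). In LSK cells Bid read 4.51, 4.63 and 4.52 in the controls, 4.58, 4.38 and 4.56 under Dox, and 4.30 and 4.60 under the compounds. These groups overlapped, with log2 differences of -0.05 (95% interval -0.29 to 0.19, adjusted p = 0.831) and -0.11 (95% interval -0.38 to 0.16, adjusted p = 0.590). AML Control thus stood highest, 2.33-fold above LSK Control (log2 1.22, SE 0.11, adjusted p = 2.61e-07), and AML Dox lowest, below every LSK array.

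Bcl2l11 encodes BIM, a BH3-only protein that rises in blood cells deprived of growth factors. It read 4.12, 4.21 and 4.29 on the AML Control arrays and 3.38, 3.56 and 3.42 under Dox, a fall of all 3 below all controls (log2 -0.75, SE 0.14, adjusted p = 0.000141). AML Compound read 4.41, 4.49 and 4.17 and overlapped the controls (0.15, 95% interval -0.13 to 0.44, adjusted p = 0.460). In LSK cells the largest value was under the compounds, 5.25 and 5.47, against 4.16, 3.77 and 4.40 in the controls. That is a 2.38-fold rise (log2 1.25, SE 0.15, adjusted p = 4.16e-06), and it held with all 18 arrays (0.97, adjusted p = 0.00658). LSK Dox read 3.92, 3.79 and 3.70 and overlapped its spread controls (-0.30, adjusted p = 0.140). It passed without LSK Control replicate 2, the lowest control (-0.47, adjusted p = 0.0151).

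Pmaip1 encodes NOXA, which binds MCL1 in particular and is switched on by p53 and by stress on protein synthesis. It was the member that rose under the compounds in both cell types. It read 5.40, 5.66 and 5.62 on the AML Control arrays and 7.14, 7.17 and 6.56 under the compounds, a 2.63-fold rise (log2 1.40, SE 0.15, adjusted p = 1.35e-06). In LSK cells it went from 4.55, 4.38 and 4.36 to 5.76 and 6.13, a 2.85-fold rise (log2 1.51, SE 0.16, adjusted p = 1.20e-06). With all 18 arrays the LSK rise was 0.93 and did not pass (adjusted p = 0.0753), while the AML rise did (adjusted p = 0.0228). Dox gave 5.12, 5.12 and 5.30 in AML cells, below all controls (-0.38, SE 0.15, adjusted p = 0.0417). That call was lost without AML Control replicate 2 or 3 or AML Dox replicate 1 or 2 (adjusted p = 0.108 to 0.127), with all 18 arrays (adjusted p = 0.572), with quantile normalization (adjusted p = 0.0525), with no filter (adjusted p = 0.0514) and with the replicate number as a block (adjusted p = 0.0562). LSK Dox read 4.82, 4.55 and 4.66, just above its controls (0.25, 95% interval -0.07 to 0.56, adjusted p = 0.294). AML Control lay 2.19-fold above LSK Control (log2 1.13, SE 0.15, adjusted p = 1.30e-05, or adjusted p = 0.0588 with all 18 arrays).

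Bbc3, Bmf and Bik did not pass in any of the 9 comparisons. Bbc3, which encodes the p53 target PUMA, ranged from 2.64 to 3.31, Bik from 3.05 to 3.91 and Bmf from 2.16 to 2.75, with group means spanning 0.35, 0.29 and 0.40. Bmf exceeded the filter level on only 12 of 17 arrays, so a change in it could be hidden by background. For Bbc3 the 95% interval was -0.28 to 0.25 in AML cells under Dox and -0.44 to 0.08 under the compounds. These intervals leave out a doubling of the array value. Bbc3 was dim on all arrays, not far above the filter level of 2.32 to 2.41, so they may not hold for the transcript itself. The 3 LSK Dox arrays of Bbc3 (3.09, 3.21 and 3.31) lay above the 3 controls (2.64, 3.07 and 2.85), with a log2 difference of 0.35 (95% interval 0.09 to 0.61, adjusted p = 0.0604). It passed with array quality weights (adjusted p = 0.0402) and without LSK Control replicate 2 (0.46, adjusted p = 0.0244), AML Dox replicate 3 (adjusted p = 0.0474) or AML Compound replicate 3 (adjusted p = 0.0432). Bik read 3.85 and 3.05 on the LSK Compound arrays, and without the first of these, replicate 2, it was called lower than in LSK Control (-0.69, adjusted p = 0.000969).

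At rest, 4 of 10 members differed between AML and LSK cells, where 29.6% of all genes did, 15.4% higher in AML and 14.2% lower (member median 0.21, all genes 0.005). Groups did not overlap for 5 members and 43.4% of all genes. Bcl2 was lower and Bid, Pmaip1 and Bak1 were higher in the leukemia cells. The Bak1 difference of 0.31 (adjusted p = 0.0438) was close to the threshold: it was not called when any array of AML Control or LSK Control was left out (adjusted p = 0.0647 to 0.128), nor without AML Dox replicate 3, AML Compound replicate 1, LSK Dox replicate 3 or LSK Compound replicate 2 or 3 (adjusted p = 0.0507 to 0.0529). It was also lost with all 18 arrays, arrays centred on their median, quantile normalization or no filter (adjusted p = 0.0571 with no filter). Mcl1 lay just outside (0.23, adjusted p = 0.0547), and passed with a stricter filter (adjusted p = 0.0311), array quality weights (adjusted p = 0.0295), an intensity trend (adjusted p = 0.0129) or arrays centred on their median (adjusted p = 0.0485), and without AML Dox replicate 1 (adjusted p = 0.0462) or AML Compound replicate 3 (adjusted p = 0.0497). With the mean of both Mcl1 probe sets the Mcl1 difference was -0.0075 and did not pass. The second Mcl1 probe set had group means of 3.38 in AML Control and 3.62 in LSK Control. Bcl2 and Bid were called with all 18 arrays.

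The next comparison asks whether AML and LSK cells answered a treatment differently. For Dox, 5 of 10 members responded differently, where 40.1% of all genes did, 18.6% more positively in AML cells and 21.5% more negatively (member median -0.41, all genes 0.005). Bcl2 responded more positively in AML than in LSK cells by 2.19 (SE 0.17, adjusted p = 1.40e-08). Bid (-2.47, SE 0.16, adjusted p = 1.90e-09), Bak1 (-1.25, SE 0.16, adjusted p = 5.07e-06), Pmaip1 (-0.63, SE 0.21, adjusted p = 0.0229) and Mcl1 (-0.50, SE 0.12, adjusted p = 0.00276) responded more negatively. Bcl2 and Bid were still called with all 18 arrays (adjusted p = 0.00120 and 3.14e-06). Pmaip1 was not called without AML Control replicate 2, AML Dox replicate 2, LSK Control replicate 3 or LSK Dox replicate 1 (adjusted p up to 0.0610). The difference of Bcl2l11 did not pass (-0.45, adjusted p = 0.0768), but did without LSK Control replicate 3 (-0.59, adjusted p = 0.0142) and with either other scaling of the arrays (adjusted p = 0.0471 and 0.0228). Bbc3 (-0.37, adjusted p = 0.115) passed without LSK Control replicate 2 (adjusted p = 0.0408) and after quantile normalization (adjusted p = 0.0388).

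For the compounds, 5 of 10 members responded differently, where 17.1% of all genes did, 8.69% more positively in AML cells and 8.37% more negatively (member median -0.32, all genes 0.02). Bcl2l11 (-1.10, SE 0.20, adjusted p = 0.000820), Bak1 (-0.94, SE 0.17, adjusted p = 0.000609), Bcl2l1 (-0.86, SE 0.18, adjusted p = 0.00281) and Bid (-0.53, SE 0.17, adjusted p = 0.0417) responded more negatively in AML cells. Bcl2 responded more positively, by 0.86 (SE 0.18, adjusted p = 0.00224), though not with the mean of both Bcl2 probe sets (0.35, adjusted p = 0.0707). The rise of Pmaip1 differed by -0.11 (95% interval -0.58 to 0.35, adjusted p = 0.803). These differences rest on the 2 LSK Compound arrays with the sex-linked shift above. When the array left out was added, limma called 0 of the 10, and 3 had an unadjusted p under 0.05. Bid was not called in 8 of the 17 fits that left out an array (AML Control replicate 1, 2 or 3, AML Compound replicate 2 or 3, LSK Control replicate 1 or 3, or LSK Compound replicate 3, adjusted p = 0.0587 to 0.236), nor in 7 other settings: all 18 arrays (-0.35, adjusted p = 0.498), the replicate block (adjusted p = 0.0710), arrays centred on their median (adjusted p = 0.0519), quantile normalization (adjusted p = 0.0744), no filter (adjusted p = 0.0527), array quality weights (adjusted p = 0.0566) and an intensity trend (adjusted p = 0.0577). Mcl1 did not pass (-0.36, adjusted p = 0.0689), but did with the mean of both its probe sets (-0.69, adjusted p = 0.00114), a stricter filter (adjusted p = 0.0407), array quality weights (adjusted p = 0.0326) and an intensity trend (adjusted p = 0.0155). With all 18 arrays the Mcl1 difference turned to 0.11 and was not called. Bik was called without LSK Compound replicate 2 (0.66, adjusted p = 0.0115).

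**Figure D3:**
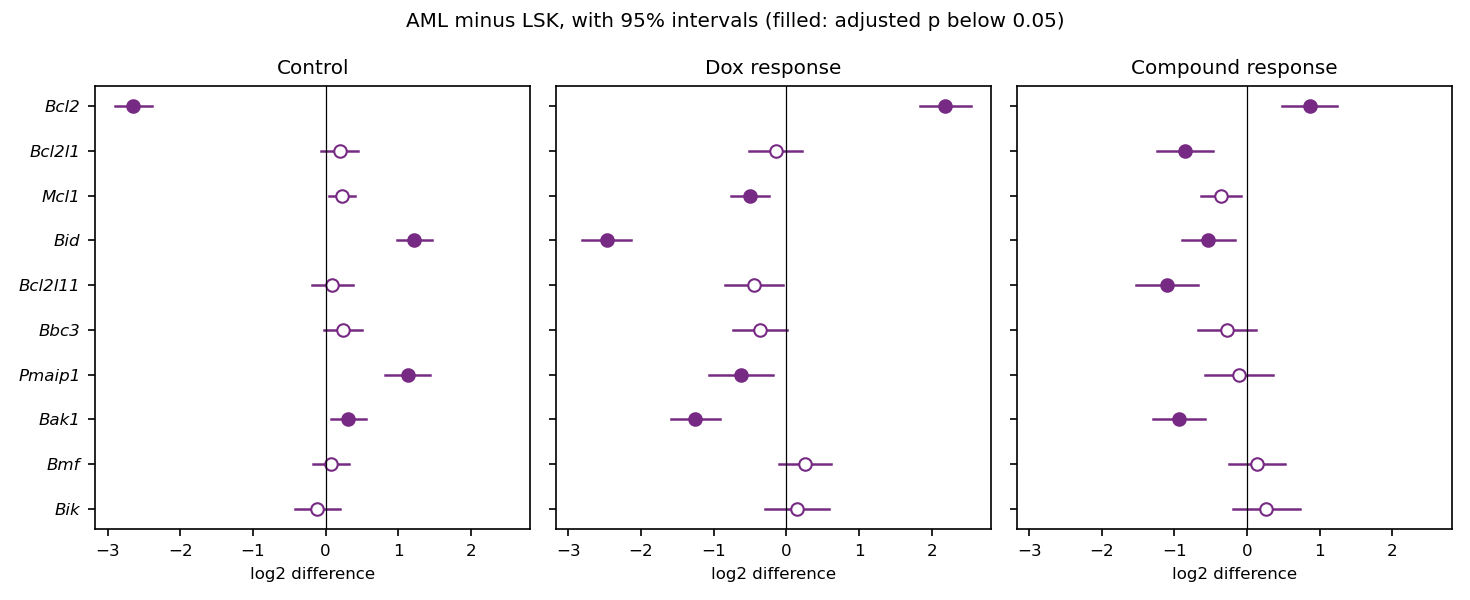
AML minus LSK for each member: in the controls, in the Dox response and in the compound response, on 17 arrays. Points are limma estimates with 95% intervals, filled where the adjusted p was under 0.05. Bcl2 lies at -2.65 in the controls and at 2.19 in the Dox response, while Bid lies at 1.22 and -2.47.

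Dox and the compounds were also set against each other within a cell type. In AML cells 5 of 10 members differed, where 47.7% of all genes did, 23.0% higher and 24.7% lower under Dox (member median -0.03, all genes -0.01). Groups did not overlap for 5 members and 52.7% of all genes. Relative to the compounds, Dox left lower Bid (-1.88, SE 0.11, adjusted p = 2.56e-10), Pmaip1 (-1.78, SE 0.15, adjusted p = 1.46e-08), Bcl2l11 (-0.90, SE 0.14, adjusted p = 2.12e-05) and Bak1 (-0.74, SE 0.11, adjusted p = 2.42e-05), and higher Bcl2 (0.66, SE 0.12, adjusted p = 0.000152). Bid, Pmaip1 and Bcl2l11 were called with all 18 arrays. In LSK cells 5 of 10 differed, all lower under Dox, where 32.3% of all genes differed and 14.3% were lower (member median -0.18, all genes 0.03). Groups did not overlap for 6 members and 52.7% of all genes. These were Bcl2l11 (-1.55, SE 0.15, adjusted p = 2.82e-07), Pmaip1 (-1.27, SE 0.16, adjusted p = 9.09e-06), Bcl2 (-0.67, SE 0.13, adjusted p = 0.000781), Bcl2l1 (-0.51, SE 0.14, adjusted p = 0.00806) and Bak1 (-0.43, SE 0.13, adjusted p = 0.0138). Only Bcl2l11 was called with all 18 arrays (adjusted p = 0.000759), where Bcl2 was at -0.21 and Pmaip1 at -0.69 (adjusted p = 0.564 and 0.172). Without LSK Compound replicate 3, Bcl2l1 (adjusted p = 0.111) and Bak1 (adjusted p = 0.0511) were not called. Bak1 was not called without LSK Compound replicate 2 (adjusted p = 0.0863) or LSK Dox replicate 1 (adjusted p = 0.0559) either, while Bik was called without LSK Compound replicate 2 (0.50, adjusted p = 0.0113).

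Markers of blood cell types moved with these results, not always as whole lists. In AML cells under Dox the summed linear level of the 5 LSK markers was 48.7 to 51.6, against 494 to 527 in the controls. Kit (3.44 against 6.22), Cd34 (3.44 against 8.67) and Flt3 lay below all controls, while Procr (3.46 against 3.01) and Hlf (3.23 against 2.81) lay above them. The sum of 5 monocyte and macrophage markers measured out of 6 was 1571 to 1687 in AML cells under the compounds (220 to 242 in the controls), with all 5 above the controls. In LSK cells under the compounds it was 1539 to 1713 (509 to 556 in the controls), but only Cd14 (9.69 against 4.88) and Adgre1 (8.69 against 4.45) lay above, while Csf1r and Ccr2 lay below and Lyz2 overlapped. The 7 neutrophil markers summed to 2266 to 2352 in AML Control, 352 to 373 in AML Dox and 667 to 788 in AML Compound, carried by Elane and Mpo. In LSK cells they summed to 1973 to 2282 in the controls, 830 to 882 under Dox and 191 to 209 under the compounds, with all 7 below the controls both times. The 4 mast cell and basophil markers summed to 176 to 182 in LSK Control, 32.6 to 38.6 in LSK Dox and 333 to 335 in LSK Compound, where Cpa3 was the only one above the controls. The 7 T and NK cell markers summed to 69.5 to 86.7 in LSK Control, 67.7 to 74.9 in LSK Dox and 40.1 to 43.6 in LSK Compound. Cd4 lay below the controls in LSK Dox, and Cd3d and Nkg7 in LSK Compound. In AML cells they summed to 46.6 to 52.0 in the controls, 40.0 to 45.1 under Dox and 43.8 to 49.8 under the compounds, with Nkg7 below the controls both times. Of this list Cd3e and Cd8a had group means of at most 2.66. The part of these shifts in the changes of the members was not tested.

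Of the 4 factors, Klf4 read 9.14 in AML Dox and 8.21 in LSK Dox against 3.27 and 3.83 in the controls. Oct4 (Pou5f1) read 3.58 and Sox2 4.03 in AML Dox, above the controls at 2.91 and 2.72. In LSK Dox both overlapped their controls, with means of 3.13 against 2.98 for Pou5f1 and 2.80 against 2.51 for Sox2. Myc was lower under Dox on all arrays of both cell types, at 4.57 against 8.67 in AML cells and 8.73 against 9.34 in LSK cells. Of the 4 transcripts, the arrays thus showed a higher level under Dox of 3 in AML cells and of 1 in LSK cells. Under the compounds, without Dox, Klf4 lay above and Myc below all controls in LSK cells, and Myc lay below them in AML cells. Whether these probe sets read the transgenes as well as the mouse's own genes was not tested.

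Other genes of the apoptosis machinery were read from fixed lists. Of 15 other BCL2 family genes 7 were tested, and in AML cells under Dox limma called 0 of them (0 also at an unadjusted p under 0.05), where 48.6% of all genes were called. BAX itself was not analysed here. Under the compounds Bcl2a1a, an NF-kB driven guardian, rose from 3.74 ± 0.40 to 6.34 ± 0.33 (SD, n = 3) in AML cells (log2 2.60, SE 0.27, adjusted p = 1.39e-06) and from 4.11 ± 0.58 (n = 3) to 8.31 ± 0.015 (n = 2) in LSK cells (log2 4.21, SE 0.31, adjusted p = 7.91e-09). Bcl2a1a has near-identical copies in the mouse genome, so its probe set may read them too. Bnip3, a mitophagy receptor, rose in AML cells under the compounds (0.70) and fell in LSK cells under Dox (-0.38). Bcl2l13, a relative with a mitophagy role, fell under the compounds in both (-0.56 and -0.34). Of the 7 tested, 2 rose and 1 fell in AML cells under the compounds, where 12.8% of all genes rose and 19.2% fell. In LSK cells 1 rose and 1 fell under the compounds (all genes 14.2% and 20.0%), and 1 fell under Dox (all genes 9.93%). On 18 arrays 1 rose in each cell type under the compounds. There limma called 0 of the falls (2, 1 and 2 of 7 at an unadjusted p under 0.05 in AML Compound, LSK Dox and LSK Compound, either direction).

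Downstream of the pore, 12 of 14 genes of the mitochondria and apoptosome were tested. In AML cells under Dox 7 fell and 1 rose, where 25.6% of all genes fell (list median -0.47). The protease Htra2, which blocks IAP proteins once released, fell from 8.31 ± 0.065 to 5.72 ± 0.12 (SD, n = 3; log2 -2.59, SE 0.08, adjusted p = 7.45e-14), and cytochrome c (Cycs) from 9.58 ± 0.048 to 7.86 ± 0.067 (log2 -1.72, SE 0.08, adjusted p = 9.15e-12). Aifm1, a respiratory chain factor that can also enter the nucleus in dying cells, fell by 1.07, and the channel Vdac2, which binds BAK, by 0.78. On 18 arrays 2 of the list fell. In LSK cells under Dox 4 fell, where 9.93% of all genes did (Htra2 -0.50, the caspase Casp6 -0.58, Aifm1 -0.31 and Vdac2 -0.32), and on 18 arrays limma called 0 (1 at an unadjusted p under 0.05). Under the compounds 7 fell in AML cells (Casp6 -0.74, Vdac1 -0.47 and Casp2 -0.56 among them, with Diablo, another IAP blocker, 0.71 higher), where 19.2% of all genes fell, and 5 in LSK cells, where 20.0% did. On 18 arrays these counts were 0 by limma (2 at an unadjusted p under 0.05) and 3. In LSK cells Apaf1, the apoptosome scaffold, rose by 0.90 (SE 0.10, adjusted p = 1.20e-06). Apaf1 was 0.94 higher in AML than in LSK controls.

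The IAP genes, whose products restrain caspases or act in cell division, rose in 5 of 8 under Dox in AML cells and 1 fell, where 23.0% of all genes rose (list median 0.66). Birc3 rose from 5.54 ± 0.20 to 7.04 ± 0.082 (SD, n = 3; log2 1.49, SE 0.10, adjusted p = 1.18e-09) and Birc2 by 1.42. The mitotic gene Birc5 (survivin) had a log2 difference of -1.35. In LSK cells under Dox 4 of 8 rose, where 9.21% of all genes did: Birc3 by 0.48, Birc2 by 0.42, Birc6 by 0.26 and Naip6 by 0.47. On 18 arrays limma called 0 of them (1 of the list at an unadjusted p under 0.05). Under the compounds Birc3 (1.78) and Birc2 (1.38) rose in LSK cells while Birc5 fell (-1.77), where 14.2% of all genes rose and 20.0% fell. In AML cells 2 rose and 3 fell, where 12.8% of all genes rose and 19.2% fell. There 1 rose and 0 fell by limma on 18 arrays (3 of 8 at an unadjusted p under 0.05). On 18 arrays 4 of 8 rose in AML cells under Dox and 0 in LSK cells under the compounds by limma (1 fell, and 2 of 8 had an unadjusted p under 0.05).

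The death receptor arm, in which FAS or TRAIL receptors act through caspase 8 on BID, had 10 of 12 genes tested. In LSK cells under the compounds 8 rose and 1 fell, where 14.2% of all genes rose (list median 0.79). Fas rose from 3.83 ± 0.17 (n = 3) to 7.48 ± 0.026 (n = 2) (log2 3.64, SE 0.16, adjusted p = 1.20e-11), TRAIL (Tnfsf10) from 4.73 ± 0.32 to 8.48 ± 0.11 (log2 3.75, SE 0.22, adjusted p = 3.73e-10), the caspase 8 inhibitor Cflar by 1.46 and the necroptosis pore gene Mlkl by 1.17. On 18 arrays 1 rose and 2 fell. In AML cells under the compounds 3 rose and 2 fell, where 12.8% of all genes rose and 19.2% fell, with Fas at 1.31, and on 18 arrays 0 rose and 1 fell by limma (1 at an unadjusted p under 0.05). The difference between the cell types in the compound response was -2.34 for Fas, -3.24 for Tnfsf10 and -1.85 for Cflar (6 of 10 more negative in AML cells, where 8.37% of all genes were). On 18 arrays limma called 0 of 10 (0 also at an unadjusted p under 0.05). In AML cells under Dox 5 of the list fell and 2 rose, where 25.6% of all genes fell and 23.0% rose: Mlkl (-1.92) and its activator Ripk3 (-0.77) fell, while Fas (1.69) and Cflar (0.65) rose. On 18 arrays limma called 0 of 10 there (2 at an unadjusted p under 0.05).

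**Figure D4:**
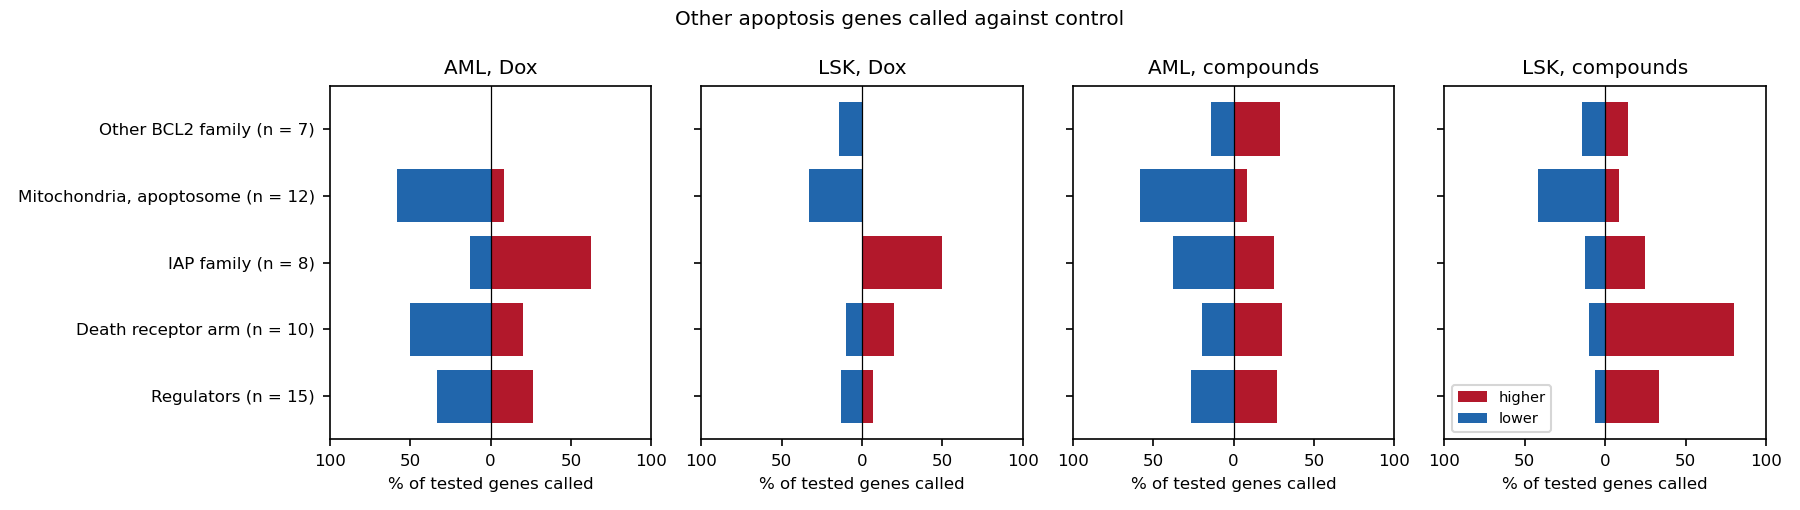
Share of the tested genes of each list that were called higher (red, to the right) or lower (blue, to the left) against control, on 17 arrays, in 4 comparisons. The death receptor arm in LSK cells under the compounds has 8 of 10 genes higher, and the other BCL2 family has 0 of 7 called by limma in AML cells under Dox (0 also at an unadjusted p under 0.05).

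Of 15 tested regulators of BCL2 family transcripts or proteins, 4 rose and 5 fell in AML cells under Dox, near the 23.0% and 25.6% of all genes. With all 18 arrays 3 rose and 4 fell. Usp9x, whose product removes ubiquitin from MCL1, rose from 7.79 ± 0.070 to 9.25 ± 0.047 (SD, n = 3; log2 1.46, SE 0.08, adjusted p = 1.09e-10), and Huwe1, a ubiquitin ligase for MCL1, by 0.80. The kinase gene Pim1 (-2.19) and the stress factor gene Atf4 (-1.62) fell. Under the compounds Atf3, a stress-induced factor, rose by 2.95 in LSK cells (SE 0.18, adjusted p = 9.13e-10), where 5 of 15 rose and 1 fell (2 and 1 on 18 arrays) and 14.2% of all genes rose and 20.0% fell. In AML cells 4 rose and 4 fell, where 12.8% of all genes rose and 19.2% fell, among them Ddit3 (0.75) and Foxo1 (0.46), transcription factor genes, and Atf4 (-0.53), while on 18 arrays 1 rose. Foxo1 also rose in LSK cells under Dox (0.87) and the compounds (0.65). p53 itself (Trp53) was not analysed here.

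For the 5 members whose group means spanned over 1 unit, the genes with the most similar pattern over the 17 arrays were found by Pearson r. These values describe 17 arrays in 6 groups that share their arrays, so any gene with the same group order scores high. For Bcl2 they were Lrrc58, Zdhhc8 and Ubtd2 (r = 0.945, 0.943 and 0.932). For Bid they were Tars2, Nubp2 and Shmt2 (r = 0.969, 0.962 and 0.960). For Bcl2l11 they were Cd69, Scfd1 and Tnfrsf10b (r = 0.964, 0.961 and 0.960), the last a TRAIL receptor gene. For Pmaip1 they were H2-Q10, Snd1 and Trpv2 (r = 0.976, 0.963 and 0.962), and for Bak1 Ube4b, Mga and Sec31a (r = 0.955, 0.955 and 0.949).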

How the data were processed

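RNA from 18 mouse samples in 6 groups was measured on 1-colour Affymetrix whole-transcript arrays, with groups read from each sample's title. The authors deposited 41345 probe set values on a log2 scale, and RMA is the tool named in the submitters' processing notes. Its version and the genome build were not given in the sources used here. They were used with no further scaling.

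A platform table named 1 gene for 23521 probe sets, several for 1814 and none for 16010. LSK Compound replicate 1 was left out, and each gene was read by its brightest probe set, by mean over the 17 other arrays. Genes above the 40th percentile of their array on at least 3 arrays were tested. limma 3.58.1 in R 4.3.3 fitted 1 mean per group on the 17 arrays (11 residual degrees of freedom, prior 5.26 with SD 0.143 log2) and 9 contrasts. Benjamini-Hochberg adjustment covered all genes tested, with a threshold of 0.05. The number of arrays limits the precision. The steps were tested on simulated data. Figures used matplotlib 3.10.9.

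The members and lists were chosen with earlier results of these data known. All members are named. Per list and comparison, up to 4 called genes with the smallest p could be named, besides markers and the induced factors. Alternatives were other sets of arrays, each array left out, a replicate block, other scalings, filters, probe set choices and variance models.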

Additional observations from a re-analysis of the deposited data

Results flagged for a closer look

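The responses of AML and LSK cells to a treatment differed for 5 members under Dox and 5 under the compounds, by the interaction contrast in limma (AML response minus LSK response, log2). The shares of all genes that differed were 40.1% and 17.1%, so the count for Dox is near its background, and with all 18 arrays the counts were 2 and 0 (2 and 3 at an unadjusted p under 0.05). For Dox the difference was 2.19 for Bcl2, -2.47 for Bid, -1.25 for Bak1, -0.63 for Pmaip1 and -0.50 for Mcl1. For Bcl2 the 3 AML arrays rose and the 3 LSK arrays fell, each beyond all of its own controls. For the compounds it was 0.86 for Bcl2, -1.10 for Bcl2l11, -0.94 for Bak1, -0.86 for Bcl2l1 and -0.53 for Bid, with 2 LSK Compound arrays. No group has more than 3 arrays, so single arrays within a group were not tested for standing apart.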

How the results depend on the processing

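Of 90 member values (10 genes in 9 comparisons) 40 were called, and 18 of these kept their direction and call in all 28 other fits. The fit with all 18 arrays changed the most, because LSK Compound replicate 1 widened the spread: it called 1 member for LSK Dox (2 without that array), 2 for LSK Compound (4), 2 for the Dox response difference (5), 0 for the compound response difference (5), 2 for AML against LSK controls (4), 3 for Dox against compounds in AML cells (5) and 1 in LSK cells (5). In it Bak1 turned to -0.84 for LSK Compound against control, 0.27 for the compound response difference and 0.78 for LSK Dox against compounds. Over all genes that fit called 4242 for AML Dox (7935 on 17 arrays), 1064 for AML Compound (5232), 602 for LSK Dox (3127), 2924 for LSK Compound (5590), 2230 and 519 for the differences in response to Dox and compounds (6547 and 2786), 1432 for the controls (4828), and 3890 and 2547 for Dox against compounds (7791 and 5283). Leaving out single arrays gave 3 to 5 members for LSK Dox against compounds, the only count it moved by over 1.5 times. No pairing of the arrays by replicate number was visible: deviations of same-numbered arrays correlated at -0.0617 to 0.104 over 19 pairs. At most 3 of 6 arrays correlated best with their own number. This cannot tell whether same-numbered samples shared an animal or a preparation. The replicate block gave 5 members for AML Dox (6 without it) and 4 for the compound response difference (5), losing Pmaip1 and Bid. Of the values not called, 13 passed in some fit and 23 changed sign in some fit. Members such as Bmf, near the filter level, are limited by signal over background.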

Other observations

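On LSK Compound replicate 1, which entered no comparison above except where stated, 4 members lay within the range of the other 17 arrays: Bcl2 at 6.08, Bcl2l1 at 4.22, Bid at 3.91 and Bcl2l11 at 4.51. Mcl1 (6.52), Pmaip1 (4.20) and Bak1 (4.13) lay below that range. Bbc3 (3.99), Bmf (3.80) and Bik (4.41) lay above it. These were the 3 members with the lowest maximum on the other 17 arrays (3.31, 2.75 and 3.91).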
